A study of Vitis vinifera with 36 samples.

Results

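The 65 genes described here had higher transcript levels in winter season berries than in summer season berries in both varieties at every stage sampled. They were chosen from the deposited FPKM values (a read count scaled to the length of the transcript and the depth of the library). For each of the 6 pairs of variety and stage, the mean of the 3 winter libraries and that of the 3 summer libraries were taken, 0.5 FPKM was added to each, and the winter value was divided by the summer value. A gene was a member when this ratio was at least 2 in all 6 pairs. Of the 28119 genes listed in any library, 67 met the ratio (0.238%), and 2 of these were left out by the rule, which were a flavonoid 3'-hydroxylase gene and 1 gene of an identifier range on chromosome 2. The winter and summer values chose the members, so the season difference below is a description with no test. All 65 members were among the 19736 genes with counts high enough to be tested for other contrasts.

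The berries came from ‘Muscat Hamburg’, a black table grape, and ‘Victoria’, a white one. They were picked in the summer season and the winter season of the 2014 vintage at E-L 35 (onset of veraison, when berries begin to soften and colour), E-L 36 (veraison completed) and E-L 38 (harvest), which gave 12 groups with 3 biological replicates each. Vines of all groups stood on SO4 rootstock under a rain shelter at 1 site in South China, were pruned and forced with hydrogen cyanamide before both crops, at other buds in the winter crop than in the summer crop, and gave berries that were pooled and de-seeded before RNA extraction. Season cannot be told apart from temperature, light, day length, the order of the crops on the vine, how the buds were forced or the date of sampling, and the p-values cover only the spread among berry pools of 1 vintage. Lower levels of a transcript in a berry and fewer cells that hold it cannot be told apart in these whole-berry samples.

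The libraries held total estimated counts of 5624449 to 18606068, with a median of 10599908. Of the 36 libraries, 4 correlated best with a library of another group, and these were ‘Victoria’ summer E-L 36 replicate 1, ‘Victoria’ summer E-L 38 replicates 1 and 3 and ‘Muscat Hamburg’ summer E-L 36 replicate 1. Without these 4 libraries the rule gave 67 genes. The chi-square per gene between replicates of a group was 1.45 to 65.76, where sampling noise alone gives 1, and the values under 2 were all in winter groups. The variety labels were checked by the anthocyanin O-methyltransferase gene VIT_201s0010g03510, whose product methylates the red pigments. Its FPKM was 8.08 to 28.7 (median 14.1) in the 18 ‘Muscat Hamburg’ libraries and 0 to 0.59 (median 0) in the 18 ‘Victoria’ libraries, without overlap. No cell type marker could be matched by name to the identifiers, so the tissue label was not checked.

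Grape identifiers name the chromosome of a gene, and the 65 members lay on 18 chromosomes, with 1 member on an unplaced sequence. The reference gene table held none of the 65 identifiers, so functions came only from the study's list of flavonoid genes. On that list were 4 members, all of them enzymes of the flavonoid pathway. No function outside this pathway could be found in this way, and the other 61 members are given by identifier. Phenylalanine ammonia-lyase opens this pathway by turning phenylalanine into cinnamic acid. Chalcone synthase then joins a phenylpropanoid with malonyl units into a chalcone, chalcone isomerase closes the ring to a flavanone, and flavanone 3-hydroxylase adds the hydroxyl group that all later flavonols, flavanols and anthocyanins carry. In berries these products give colour to the skin of black grapes, astringency and protection from ultraviolet light, and the synthesis of anthocyanins is known to be sensitive to temperature and light.

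The members covered a wide range of levels. The mean over the 6 winter groups was 32.2 FPKM for the median member and the mean over the 6 summer groups was 5.98 FPKM. The winter mean was under 10 FPKM in 14 members, from 10 to 50 FPKM in 27 and at least 50 FPKM in 24, of which 9 reached 100 FPKM. In 17 members the summer mean was under 1 FPKM. In 13 members at least 1 summer group had no library over 3 counts, which is taken here as the limit of detection, and for those groups the ratio depends on the 0.5 FPKM added and bounds no fold change.

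**Figure D1:**
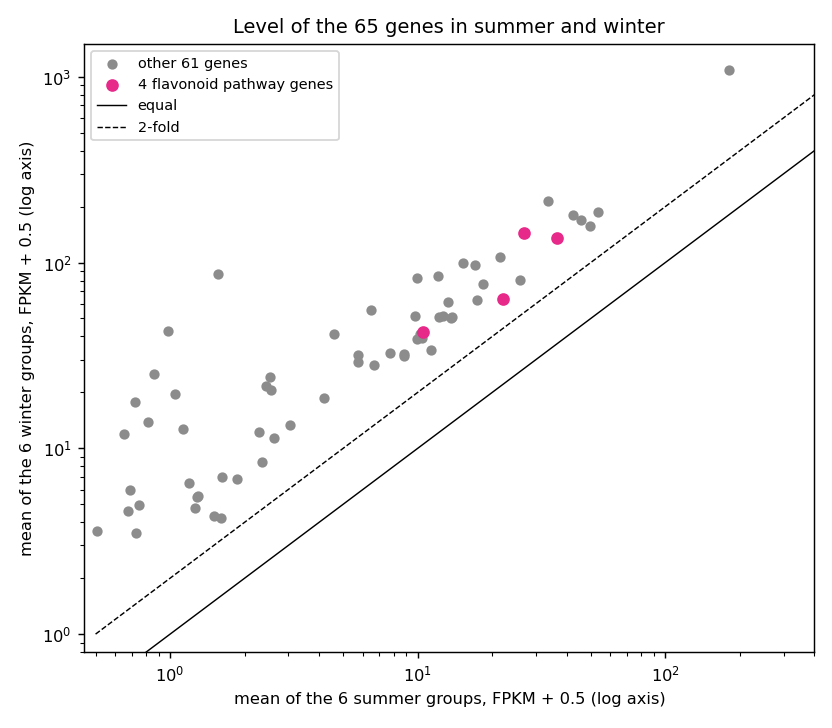
Mean FPKM + 0.5 of the 6 summer groups (x axis, log) against that of the 6 winter groups (y axis, log) for the 65 genes, 1 point per gene. The 4 flavonoid pathway genes are coloured. The solid line is equality and the dashed line a 2-fold difference, and every point lies above the dashed line, as the rule fixes.

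Together the 65 genes took 0.111% to 0.144% of the summed FPKM of a library on average in the 6 summer groups. In winter season berries of ‘Muscat Hamburg’ they took 0.465% ± 0.00202 (SD, n = 3) at E-L 35, 0.819% ± 0.0562 at E-L 36 and 0.656% ± 0.0856 at E-L 38. In ‘Victoria’ the winter shares were 0.575% ± 0.0609, 0.759% ± 0.0136 and 0.626% ± 0.0716 at the same stages. The share was therefore highest at E-L 36 in both varieties. VIT_208s0007g06040 alone gave much of it, and without that gene the ‘Muscat Hamburg’ winter means were 0.325%, 0.565% and 0.472% and the ‘Victoria’ ones 0.454%, 0.572% and 0.506%.

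The ratio was largest at E-L 36. The median ratio of the 65 genes in ‘Muscat Hamburg’ was 3.2 at onset of veraison (E-L 35), 5.88 at E-L 36 and 4.05 at harvest (E-L 38). In ‘Victoria’ it was 3.41, 5.62 and 4.29. Over all genes tested the median ratio lay between 0.906 and 1.03 in the 6 pairs. Among all 28119 genes, a ratio of at least 2 was met, in the order of the stages, in 3.14%, 6.87% and 5.14% of genes in ‘Muscat Hamburg’ and in 4.64%, 6.13% and 7% in ‘Victoria’. The rule used these ratios, so they say nothing further of the members.

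At E-L 36 the ratio reached 4 in 50 members in ‘Muscat Hamburg’ and 49 in ‘Victoria’, against 23 and 25 at onset of veraison, and 34 and 38 at harvest. Within ‘Muscat Hamburg’ the largest of the 3 ratios of a gene was at E-L 35 in 12 members, at E-L 36 in 33 and at E-L 38 in 20. Within ‘Victoria’ these numbers were 18, 28 and 19. No share of all genes is at hand for a ratio of 4 or for the stage of the largest ratio. At a ratio of 2 the share of all genes was highest at E-L 36 in ‘Muscat Hamburg’ and at E-L 38 in ‘Victoria’. Whether the height at E-L 36 is particular to the members was not tested. The stage of the largest ratio was the same in both varieties in 28 members. Neither variety held the higher ratio throughout. The ratio was higher in ‘Muscat Hamburg’ in 28, 31 and 23 members over the stages in order and higher in ‘Victoria’ in the others. The smallest of the 6 ratios fell in ‘Muscat Hamburg’ at E-L 35 in 19 members and in ‘Victoria’ at E-L 35 in 16. Among the members it thus lay most often at E-L 35, which does not show what kept other genes out.

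**Figure D2:**
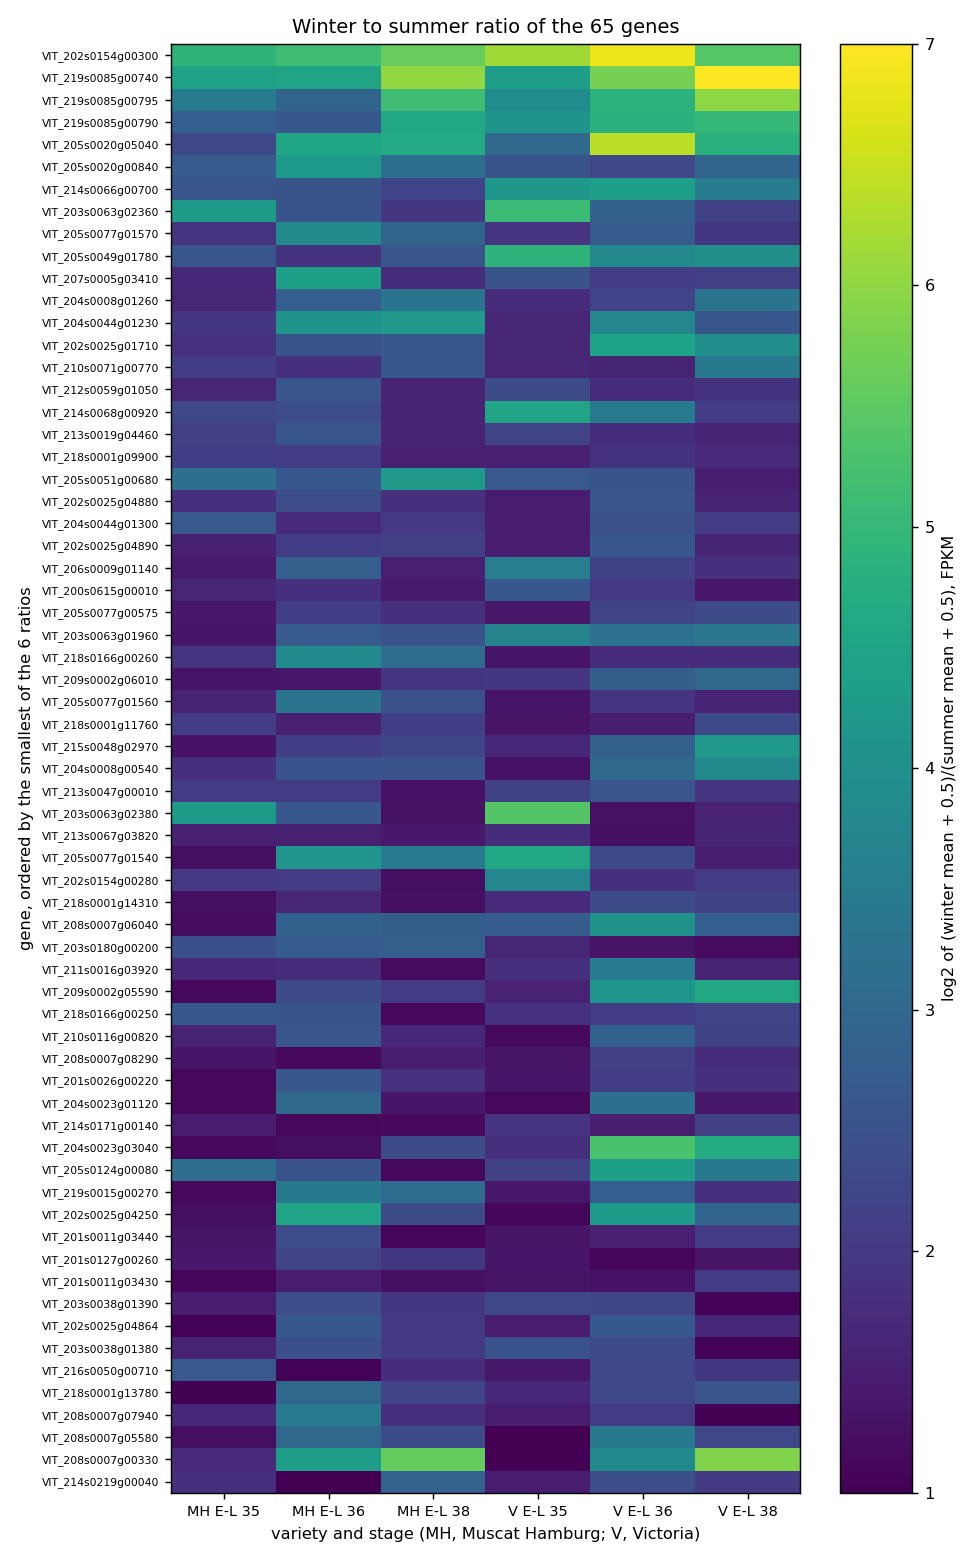
The log2 of the winter to summer ratio (colour) for the 65 genes (rows, ordered by their smallest ratio) in the 6 pairs of variety and stage (columns). The top rows are high in all 6 columns, with ratios of 30 and more for the first, and most other rows have at least 1 column near the threshold of 2, which is 1 on this scale.

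For most members the season difference was modest in at least 1 pair. The smallest of the 6 ratios had a median of 2.45 and was under 3 in 48 members. It was at least 5 in 4 members and at least 10 in 2. All 3 winter libraries lay above all 3 summer libraries in all 6 pairs in 56 members, and in 61 to 65 members within a single pair. Within a single pair, 29.7%, 25.1% and 24.4% of the genes tested showed this in ‘Muscat Hamburg’ and 18.1%, 27.1% and 28.5% in ‘Victoria’, in the order of the stages. No share of all genes is at hand for all 6 pairs. The rule used the same winter and summer values, so this separation says nothing further of the members. In 23 members all 18 winter libraries lay above all 18 summer libraries, which held for 0.324% of the genes tested. When 1 library was left out at a time, 39 members stayed in under each omission, and 61 to 70 genes met the rule.

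The members just inside the threshold were VIT_214s0219g00040 with a smallest ratio of 2.015, VIT_208s0007g00330 with 2.021 and VIT_208s0007g05580 with 2.025. Just outside were VIT_216s0148g00250 with 1.992, VIT_214s0006g01580 with 1.99 and VIT_200s1525g00010 with 1.988, followed by VIT_218s0001g00510 with 1.979 and VIT_201s0011g04820 with 1.976. These 5 genes are the non-members most like the members by this measure. VIT_218s0001g00510 had a median ratio of 11.4, a winter mean of 52.8 FPKM and a summer mean of 5.48 FPKM, and missed the rule only in ‘Muscat Hamburg’ at E-L 35.

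VIT_208s0007g00330 shows how the rule meets spread among replicates. In ‘Victoria’ at E-L 35 its FPKM was 3.18, 22.83 and 7.13 in the winter libraries and 3.82, 3.25 and 8.57 in the summer ones. These groups overlapped, and without replicate 2 the ratio was 0.845. At E-L 38 the ‘Victoria’ winter libraries had 14.78, 49.81 and 55.86 FPKM and the summer ones 0.27, 0.18 and 0.14, a ratio of 58.3.

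Of the 4 flavonoid enzymes, phenylalanine ammonia-lyase VIT_213s0019g04460 had ratios of 4.38, 6.13 and 3.01 in ‘Muscat Hamburg’ and 4.7, 3.45 and 2.96 in ‘Victoria’ over the stages in order. Its ‘Muscat Hamburg’ libraries had 14.92, 14.29 and 12.77 FPKM in summer and 63.25, 61.37 and 64.38 in winter at E-L 35. At E-L 38 they had 22.76, 27.89 and 28.74 in summer and 81.12, 85.61 and 75.05 in winter. In ‘Victoria’ the same gene was far lower, with 1.41, 0.59 and 0.94 FPKM in summer and 8.11, 5.96 and 5.28 in winter at E-L 35. At E-L 38 the ‘Victoria’ winter libraries had 11.51, 3.52 and 4.49 FPKM and the summer ones 1.98, 1.12 and 2.5, and the groups did not overlap although the first winter library was well above the others. With single libraries left out, this gene did not stay a member under every omission.

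Chalcone synthase VIT_214s0068g00920 had a mean of 143.1 FPKM over the winter groups against 26.48 FPKM over the summer groups. In ‘Muscat Hamburg’ at E-L 35 its libraries had 25.01, 28.41 and 28.61 FPKM in summer and 142.04, 134.95 and 125.19 in winter. In ‘Victoria’ at E-L 35 they had 9.44, 2.67 and 3.65 FPKM in summer and 161.77, 133.37 and 95.9 in winter. The winter libraries of the varieties overlapped at this stage and the summer libraries did not, and the ratio was 22.7 in ‘Victoria’ and 4.83 in ‘Muscat Hamburg’. At E-L 36 the winter libraries had 195.78, 190.31 and 96.82 FPKM in ‘Muscat Hamburg’ and 159.24, 163.45 and 155.38 in ‘Victoria’. At E-L 38 the ratios were 3.01 in ‘Muscat Hamburg’ and 4.29 in ‘Victoria’.

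Chalcone isomerase VIT_213s0067g03820 had the most even ratios of the 4 genes, from 2.36 in ‘Victoria’ at E-L 36 to 3.42 in ‘Victoria’ at E-L 35. Over all groups its summer libraries ranged from 13.34 to 32.42 FPKM and its winter libraries from 40.41 to 82.08 FPKM, so that no summer library reached any winter library. Flavanone 3-hydroxylase VIT_218s0001g14310 separated the seasons in the same way, with 20.82 to 63.15 FPKM in summer and 63.65 to 276.37 FPKM in winter. In ‘Victoria’ its winter libraries had 243.14, 244.25 and 234.94 FPKM at E-L 36, and the summer libraries had 52.44, 46.35 and 38.9. In ‘Muscat Hamburg’ at E-L 36 the winter libraries had 82.22, 78.66 and 82.82 FPKM and the summer ones 20.82, 30.86 and 25.63. At this stage every ‘Victoria’ library was above every ‘Muscat Hamburg’ library of the same season, whereas the ammonia-lyase had the reverse order.

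**Figure D3:**
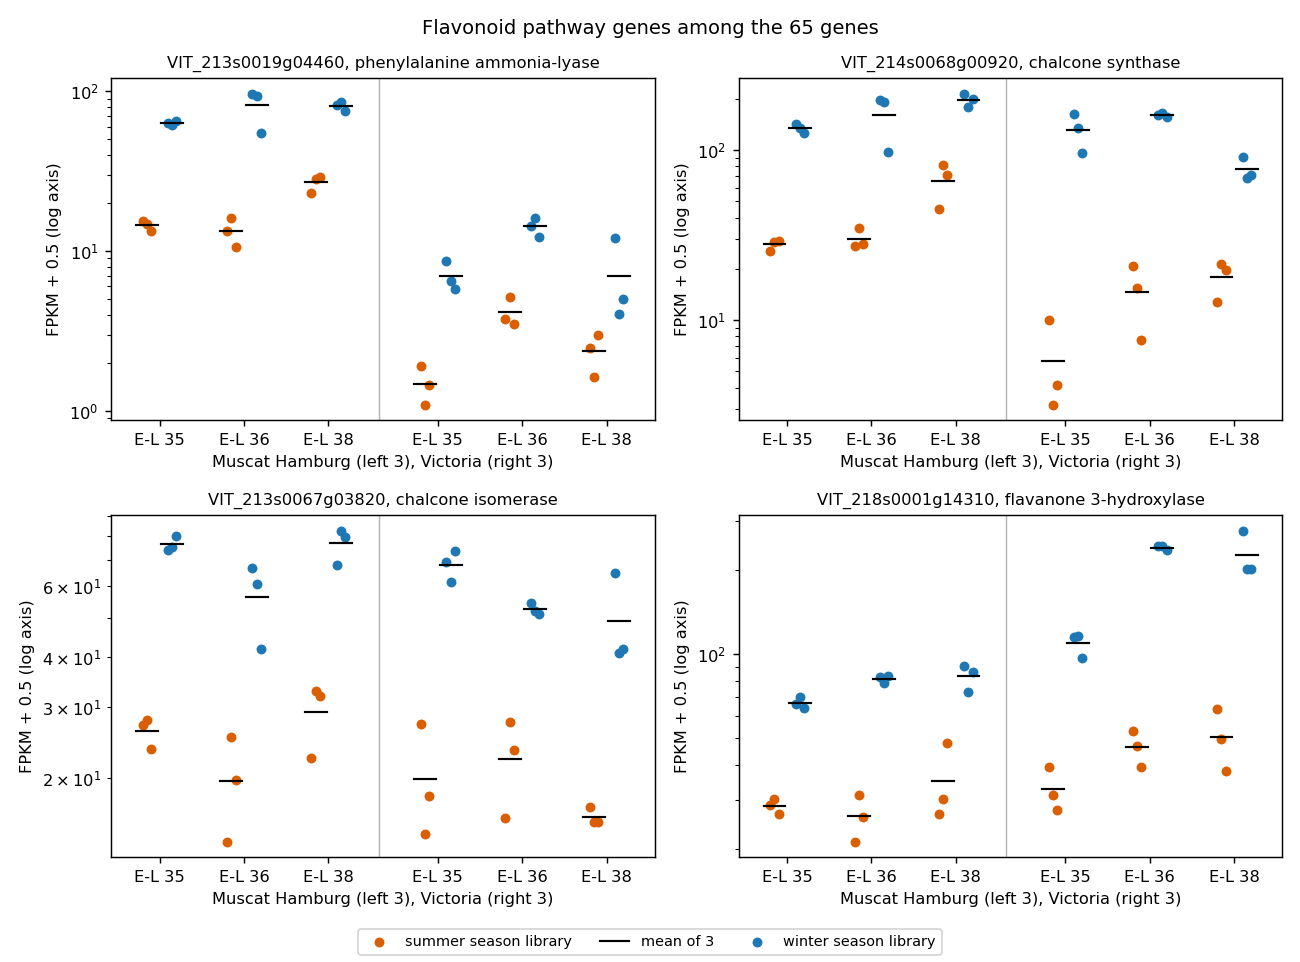
FPKM + 0.5 (y axis, log) of the 4 flavonoid pathway genes in each of the 36 libraries, by variety and stage (x axis), with orange points for summer libraries, blue points for winter libraries and a bar at the mean of 3. Winter points lie above summer points in every pair, the ammonia-lyase is lower in ‘Victoria’ than in ‘Muscat Hamburg’ in both seasons, and the mean of chalcone synthase in ‘Victoria’ summer berries is lowest at E-L 35.

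The study's own list of flavonoid genes, which was chosen on these samples and is no independent evidence, holds 64 genes. Of these, 4 are members, 3 are identifiers that the rule leaves out and 57 are others. Of the 57 others, none met the ratio in all 6 pairs, 3 met it in 5, 12 in 4 and 14 in none. By edgeR's quasi-likelihood test on the counts, at an adjusted p no higher than 0.05 and a change of 2-fold or more, 23, 28 and 16 of them were higher in winter in ‘Muscat Hamburg’ over the stages in order, and 0, 3 and 2 were lower. Of all genes tested 4.15%, 9.8% and 8.9% were higher there and 1.86%, 8.97% and 11.1% lower. In ‘Victoria’ 28, 9 and 4 were higher and 0, 6 and 7 lower, against 8.44%, 9.96% and 10.9% of all genes higher and 8.87%, 13.6% and 15.9% lower. Their median log2 fold change was 1.23, 1.11 and 0.79 in ‘Muscat Hamburg’ and 1.23, 0.04 and -0.18 in ‘Victoria’, where the median of all genes tested lay between -0.03 and 0. One of the 57, the phenylalanine ammonia-lyase gene VIT_206s0004g02620, met the ratio in 5 pairs and had 1.96 in ‘Victoria’ at E-L 38.

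The member with the largest smallest ratio was VIT_202s0154g00300, with ratios of 30, 35.1 and 48.5 in ‘Muscat Hamburg’ and 70.5, 115 and 43 in ‘Victoria’. In ‘Victoria’ at E-L 36 its FPKM was 120.15, 126.68 and 129.49 in winter and 0, 1.2 and 0.59 in summer. The ‘Muscat Hamburg’ libraries at E-L 35 had 20.73, 17.57 and 24.19 FPKM in winter and 0.31, 0.21 and 0.11 in summer, where all 3 libraries were at the limit. Its winter libraries at E-L 38 in ‘Victoria’ were uneven, with 6.31, 198.36 and 192.38 FPKM. The lowest of these was still above every summer library, the highest of which had 4.87 FPKM. Its neighbour VIT_202s0154g00280 was also a member at lower levels, with a winter mean of 4.114 FPKM.

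VIT_219s0085g00740, VIT_219s0085g00795 and VIT_219s0085g00790 on chromosome 19 followed, with smallest ratios of 20.1, 7.58 and 6.27. At the limit were 2, 3 and 5 summer groups of these genes in the order given, where the ratio bounds no fold change. VIT_219s0085g00740 had 32.56, 101.28 and 105.05 FPKM in winter and 0.15, 0.1 and 0.13 in summer in ‘Victoria’ at E-L 38. The ratio of 128 was the largest of any member, but with summer values this low it depends on the 0.5 FPKM added. In ‘Muscat Hamburg’ at E-L 38 it had 23.32, 67.36 and 43.63 FPKM in winter and 0.4, 0.07 and 0.13 in summer. In all 3 genes each of the 18 winter libraries lay above each of the 18 summer libraries. Winter levels differed among them, with means over the winter groups of 42.25, 17.21 and 11.43 FPKM in the order given. Their estimated counts were not whole in 21 to 27 libraries, as happens when a read is divided among related sequences, and the level of each gene is uncertain to that extent.

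VIT_205s0020g05040 and VIT_205s0020g00840 on chromosome 5 had smallest ratios of 4.95 and 4.84. The first gene was low at E-L 35 and the second was not. The ratio of 4.95 was in ‘Muscat Hamburg’ at E-L 35, where the summer group was at the limit. VIT_205s0020g00840 had 86.67, 84.92 and 105.79 FPKM in winter and 3.22, 6.51 and 3.75 in summer in ‘Muscat Hamburg’ at E-L 36. In ‘Victoria’ at the same stage it had 23.31, 18.29 and 20.8 in winter and 2.43, 5.01 and 4.25 in summer, and its ratio was 18.6 in the first variety and 4.84 in the second. The remaining members with the largest smallest ratios were VIT_214s0066g00700 (4.59), VIT_203s0063g02360 (3.85), VIT_205s0077g01570 (3.71) and VIT_205s0049g01780 (3.66). The ratio of 3.85 was in ‘Muscat Hamburg’ at E-L 38, where the summer group was also at the limit. VIT_205s0049g01780 had 0.3, 0.42 and 0.19 FPKM in summer and 10.46, 13.39 and 46.86 in winter in ‘Victoria’ at E-L 35, a ratio of 30.

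Among the most abundant members, VIT_208s0007g06040 had a winter mean of 1090 FPKM and a summer mean of 179.9 FPKM. Its 18 winter libraries ran from 494.75 to 2332.91 FPKM and its 18 summer libraries from 55.78 to 428.08, without overlap. In ‘Muscat Hamburg’ at E-L 35 the summer libraries had 334.99, 369.55 and 428.08 FPKM and the winter ones 871.18, 878.67 and 873.51, the smallest ratio of this gene at 2.31. In ‘Victoria’ at E-L 36 they had 87.22, 79.08 and 55.78 in summer and 1235.15, 1230.54 and 1290.69 in winter, a ratio of 16.8.

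The next in winter level were VIT_214s0066g00700 (winter mean 212.9 FPKM, summer mean 33.01 FPKM), VIT_201s0026g00220 (185.6 and 52.75), VIT_210s0071g00770 (179.1 and 41.69), VIT_202s0025g04864 (169.4 and 45.34) and VIT_201s0011g03440 (156.9 and 49.2). VIT_201s0026g00220 held the seasons fully apart, with 112.69 to 345.36 FPKM in winter and 20.88 to 94.13 in summer. VIT_201s0011g03440 did so within each pair, and at its smallest ratio, 2.11 in ‘Muscat Hamburg’ at E-L 38, it had 143.26, 133.12 and 135.29 FPKM in winter and 58.07, 64.96 and 71.37 in summer. VIT_205s0124g00080 (106.4 and 21) overlapped at that stage, with 76.98, 209.24 and 130.67 FPKM in winter and 50.44, 82.26 and 56.45 in summer. VIT_205s0077g01570 (99.2 and 14.76) completes the 10 with the highest winter means, together with the chalcone synthase and flavanone 3-hydroxylase genes.

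Some members were neighbours. In 9 runs of 2 or 3 members whose identifiers lay within 100 of each other, 21 of the 65 genes were placed, and the other 44 stood alone. The runs of 3 members were VIT_202s0025g04864, VIT_202s0025g04880 and VIT_202s0025g04890 on chromosome 2, VIT_205s0077g01540, VIT_205s0077g01560 and VIT_205s0077g01570 on chromosome 5, and the chromosome 19 genes above. All 3 genes of the chromosome 2 run were higher in ‘Victoria’ and those of the chromosome 5 run rose towards E-L 38 in ‘Muscat Hamburg’ winter berries, by the tests below. Counts that are not whole occurred in 26 members, and in 8 of them in all 36 libraries. The levels of those genes rest on how reads were divided among copies, and members of a run are not independent of each other. No share of all genes is at hand for such runs or for counts that are not whole. Neither is therefore shown to be particular to the members.

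The rule did not use differences between stages, so the change from E-L 35 to E-L 38 was tested within each variety and season with edgeR's quasi-likelihood test on the counts, with Benjamini-Hochberg adjustment over the 19736 genes. The threshold was an adjusted p no higher than 0.05 together with a change of 2-fold or more. In winter season berries 22 members rose and 4 fell in ‘Muscat Hamburg’, where 6.37% of all genes rose and 13.9% fell. In ‘Victoria’ winter berries 21 rose and 6 fell, where 7.85% of all genes rose and 17.1% fell. In summer 12 members rose and 8 fell in ‘Muscat Hamburg’ (5.2% and 8.06% of all genes) and 10 rose and 9 fell in ‘Victoria’ (6.17% and 10.7%). Members near the limit in summer could pass the count filter through their winter groups. In 13 members at least 1 summer group was at the limit, and they were not counted apart. The ‘Victoria’ summer calls numbered 12 in place of 19 without the 4 libraries that correlated best with another group.

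The median log2 fold change of the 65 members was 0.66 and 0.39 in winter season berries of ‘Muscat Hamburg’ and ‘Victoria’, and 0.15 and 0.11 in their summer season berries. The median of all genes lay between -0.04 and 0.01 in these contrasts. Over the 4 contrasts, 30 members rose in at least 1 and fell in none, 10 fell in at least 1 and rose in none, 6 did both and 19 were past the threshold in none. Among all genes tested these shares were 13.7%, 24.7%, 3.66% and 57.9%. VIT_205s0049g01780, VIT_206s0009g01140 and VIT_214s0066g00700 rose in all 4 contrasts, as 0.269% of the genes tested did, and VIT_203s0063g02360 and VIT_203s0063g02380 fell in all 4, as 1.69% did.

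VIT_203s0063g02360 was highest at E-L 35, the first stage sequenced, and its level before that stage is not known. Its winter libraries had 38.43, 41.42 and 44.67 FPKM at E-L 35, 4.32, 4.47 and 2.88 FPKM at E-L 36 and 0.92, 2.4 and 1.77 FPKM at E-L 38 in ‘Muscat Hamburg’. In ‘Victoria’ they had 73.48, 52.6 and 61.47, then 4.3, 3.48 and 1.67, then 1.58, 1.53 and 2.11. Each stage lay below the one before it in ‘Muscat Hamburg’, and in ‘Victoria’ both later stages lay below E-L 35. The log2 fold change to E-L 38 in winter was -4.44 (SE 0.36, edgeR adjusted p = 6.52e-10) in ‘Muscat Hamburg’ and -5.04 (SE 0.37, edgeR adjusted p = 9.3e-11) in ‘Victoria’.

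In summer the same gene had only 1.19 to 1.82 FPKM at E-L 35 and was at the limit at E-L 38 in both varieties, at least 4.29-fold lower in ‘Muscat Hamburg’ and at least 3.27-fold lower in ‘Victoria’ (edgeR adjusted p = 0.000263 and 0.000171). The nearby VIT_203s0063g02380 had the same course, with log2 fold changes of -5.1 (SE 0.43, edgeR adjusted p = 5.54e-10) and -5.32 (SE 0.43, edgeR adjusted p = 2.09e-10) in winter. In summer it was at the limit at E-L 38, at least 3.49-fold lower in ‘Muscat Hamburg’ and 1.44-fold lower in ‘Victoria’ (edgeR adjusted p = 0.000531 and 0.00787). The call in ‘Victoria’ was lost without the 4 libraries named above and with limma on log2(FPKM + 1). Both genes had non-whole counts in 26 libraries.

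**Figure D4:**
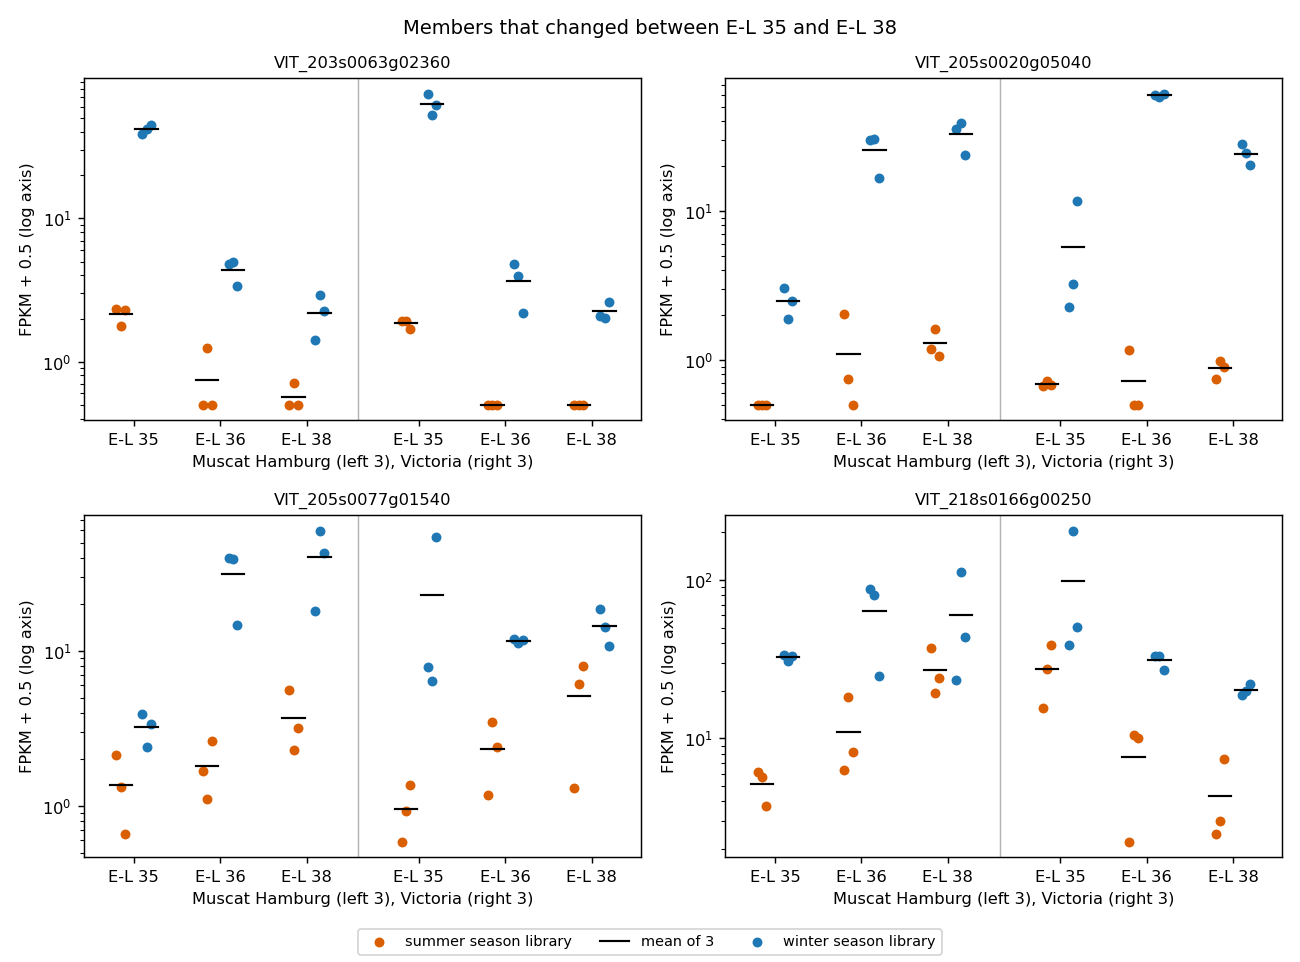
FPKM + 0.5 (y axis, log) in each library for 4 members that changed with ripening, by variety and stage (x axis), with orange summer points, blue winter points and a bar at the mean of 3. VIT_203s0063g02360 falls after E-L 35, VIT_205s0020g05040 rises in winter berries, and the lower panels hold genes whose winter libraries differ widely, such as 53.73 FPKM in 1 ‘Victoria’ E-L 35 library of VIT_205s0077g01540.

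VIT_205s0020g05040 took the opposite course in winter. Its libraries had 2.56, 1.39 and 1.98 FPKM at E-L 35, 29.7, 29.87 and 16.15 FPKM at E-L 36 and 34.93, 38.38 and 23.29 FPKM at E-L 38 in ‘Muscat Hamburg’. Both later stages lay above E-L 35 without overlap, and the log2 fold change to E-L 38 was 4.14 (SE 0.49, edgeR adjusted p = 1.27e-07). In ‘Victoria’ winter berries it peaked at E-L 36, with 59.92, 57.57 and 60.7 FPKM, between 1.78, 2.73 and 11.14 FPKM at E-L 35 and 27.63, 23.97 and 19.92 FPKM at E-L 38. In summer no library of either variety exceeded 1.55 FPKM. The ‘Muscat Hamburg’ summer libraries were at 0 at E-L 35 and at 0.69, 1.11 and 0.57 FPKM at E-L 38, at least 2.6-fold higher (edgeR adjusted p = 0.0129). The E-L 38 libraries held only 5 to 8 counts each, and the gene passed the count filter through its winter groups. This call was lost with limma on log2(FPKM + 1).

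VIT_205s0077g01540 rose in ‘Muscat Hamburg’ winter berries, from 3.42, 1.91 and 2.87 FPKM at E-L 35 to 17.7, 59.02 and 42.47 FPKM at E-L 38, a log2 fold change of 3.97 (SE 0.71, edgeR adjusted p = 4.01e-05). Its counts were whole in no library. VIT_202s0025g04250 rose there from 1.45, 0.69 and 0.33 FPKM to 2.97, 12.77 and 5.35, by 3.27 (SE 0.7, edgeR adjusted p = 0.000443). In summer it was at the limit at E-L 35 and reached 0.66, 0 and 2.12 FPKM at E-L 38. By the mean alone this was at least 2.95-fold higher (edgeR adjusted p = 0.0243), although 1 library was at 0. That call was lost when 1 of 4 of these libraries was left out, and with limma on log2(FPKM + 1) and on log2(FPKM + 0.1). The third of the members that fell most in ‘Muscat Hamburg’ winter berries was VIT_213s0047g00010, with 58.4, 60.07 and 59.47 FPKM at E-L 35 and 23.88, 24.17 and 25.09 FPKM at E-L 38, a log2 fold change of -1.18 (SE 0.28, edgeR adjusted p = 0.00118).

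In ‘Victoria’ winter berries VIT_209s0002g05590 rose from 1.92, 2.1 and 4.3 FPKM at E-L 35 to 36, 23.83 and 23.13 FPKM at E-L 38, a log2 fold change of 3.39 (SE 0.38, edgeR adjusted p = 2.59e-08). VIT_204s0023g03040 rose from 2.31, 6.47 and 5.72 to 21.22, 39.23 and 40.04 FPKM, by 2.98 (SE 0.31, edgeR adjusted p = 9.09e-09), and was highest at E-L 36 with 63.69, 55.84 and 59.87. VIT_204s0008g00540, a low gene, rose from 1.85, 0.77 and 1.33 to 10.85, 8.3 and 9.3 FPKM, by 2.86 (SE 0.42, edgeR adjusted p = 2.28e-06). None of these 3 genes overlapped between the stages. VIT_202s0154g00280 fell from 9.66, 23.65 and 18.02 to 0, 2.82 and 2.43 FPKM, by 3.09 on the log2 scale (SE 0.62, edgeR adjusted p = 0.000169).

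In summer season berries VIT_206s0009g01140 rose in both varieties, from 0.66, 1.35 and 0.67 FPKM to 7.87, 5.46 and 15.78 in ‘Muscat Hamburg’ and from 2.56, 1.19 and 1.83 to 16.38, 13.73 and 16.32 in ‘Victoria’. The log2 fold changes were 3.42 (SE 0.56, edgeR adjusted p = 2.69e-05) and 3.34 (SE 0.49, edgeR adjusted p = 4.1e-06). VIT_205s0049g01780 rose in ‘Victoria’ from 0.3, 0.42 and 0.19 to 8.5, 5.91 and 1.41 FPKM, by 4.31 (SE 0.85, edgeR adjusted p = 0.000161). There VIT_205s0077g01540 went from 0.09, 0.43 and 0.87 to 0.81, 5.6 and 7.48 FPKM with groups that overlapped, a log2 fold change of 3.56 (SE 0.92, edgeR adjusted p = 0.00268).

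VIT_208s0007g00330 fell in summer from 8.81, 5.48 and 2.7 FPKM to 0.73, 0.15 and 0.24 in ‘Muscat Hamburg’ and from 3.82, 3.25 and 8.57 to 0.27, 0.18 and 0.14 in ‘Victoria’. Its log2 fold changes were -3.92 (SE 1.06, edgeR adjusted p = 0.00484) and -4.37 (SE 1.23, edgeR adjusted p = 0.00497), and the second call was lost without the 4 libraries named above. Its winter libraries at E-L 38 ranged from 9.78 to 89.84 FPKM over both varieties, while no summer library at that stage exceeded 0.73 FPKM.

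Of the flavonoid enzymes, chalcone synthase rose with ripening in summer, with log2 fold changes of 1.26 (SE 0.32, edgeR adjusted p = 0.00307) in ‘Muscat Hamburg’ and 2 (SE 0.35, edgeR adjusted p = 3.56e-05) in ‘Victoria’. In winter its log2 fold changes were 0.66 (SE 0.31, edgeR adjusted p = 0.0814) and -0.68 (SE 0.31, edgeR adjusted p = 0.0713), not past the threshold. Flavanone 3-hydroxylase rose in ‘Victoria’ winter berries, by 1.14 (SE 0.18, edgeR adjusted p = 7.04e-06). The ammonia-lyase rose in ‘Victoria’ summer berries, by 1.23 (SE 0.36, edgeR adjusted p = 0.00625), a call that was lost without the 4 libraries named above and without either of 2 single libraries, ‘Victoria’ summer E-L 35 replicate 2 or E-L 38 replicate 3. That call was also lost with scaling by library size alone and with limma on log2(FPKM + 1) and on log2(FPKM + 0.1). Chalcone isomerase was past the threshold in none of the 4 contrasts, with log2 fold changes from -0.39 to 0.15.

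The varieties were compared within each season and stage in the same model. The limits given above for setting members against the shares of all genes hold here and in the interaction tests below. Higher in ‘Muscat Hamburg’ were 18, 13 and 17 members in summer over the stages in order, where 6.76%, 6.57% and 7.56% of all genes were, and 9, 15 and 19 members in winter, where 6.42%, 8.37% and 6.91% were. Lower in ‘Muscat Hamburg’ were 10, 9 and 8 members in summer (12.2%, 10.3% and 10.7% of all genes) and 11, 15 and 12 in winter (8.25%, 7.97% and 6.54%). The median log2 difference of the 65 members stayed between -0.2 and 0.5 in the 6 contrasts, and that of all genes between -0.02 and 0.01. Over the 6 contrasts, 30 members were past the threshold only as higher in ‘Muscat Hamburg’, 22 only as lower, 4 in both directions and 9 in none, against 15.8%, 20.9%, 2.86% and 60.4% of all genes tested. The level of a member thus often differed between the varieties, in either direction, while both varieties had the winter excess that the rule asked for.

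**Figure D5:**
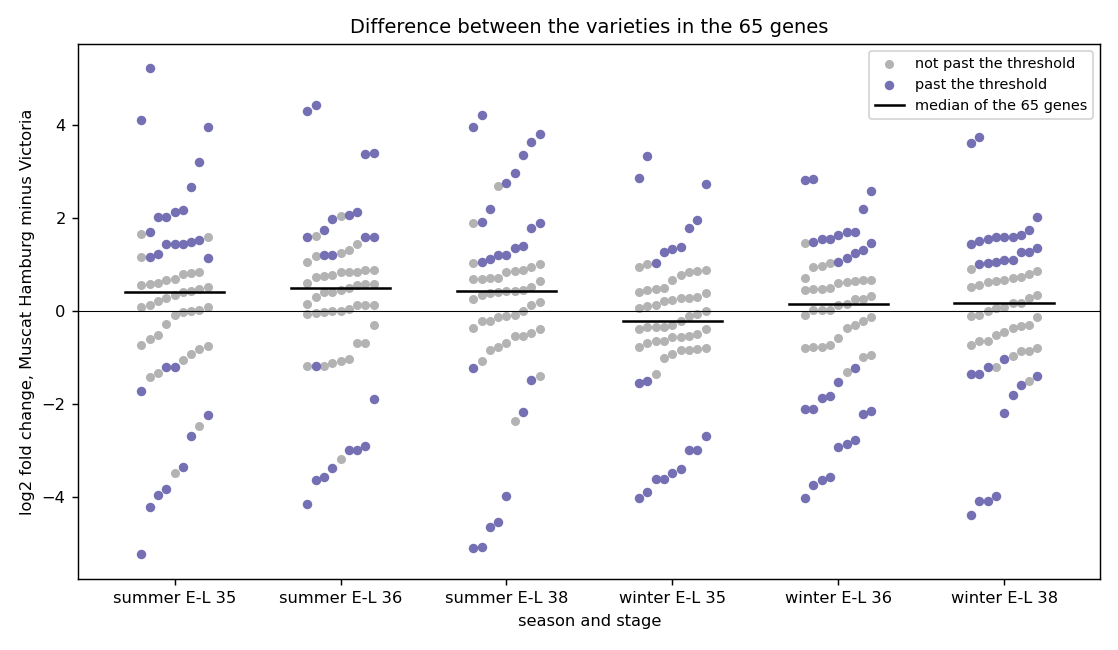
Log2 fold change, ‘Muscat Hamburg’ minus ‘Victoria’ (y axis), of the 65 genes (1 point each) in the 6 combinations of season and stage (x axis). Purple points are past the threshold of the edgeR test, grey points are not, and black bars mark the medians, which lie close to 0 while single genes range from -5.23 to 5.23.

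In all 6 contrasts 4 members were higher in ‘Muscat Hamburg’, where 1.43% of the genes tested were. These members were VIT_205s0124g00080, VIT_209s0002g05590, VIT_214s0066g00700 and the ammonia-lyase VIT_213s0019g04460. The log2 difference of the ammonia-lyase ran from 1.99 (SE 0.29, edgeR adjusted p = 3.68e-06) in summer at E-L 36 to 4.12 (SE 0.32, edgeR adjusted p = 4.33e-11) in summer at E-L 35, and in winter it was 3.35, 2.58 and 3.76 from E-L 35 to E-L 38 (edgeR adjusted p = 5.65e-10, 1.75e-08 and 5.94e-11). VIT_214s0066g00700 had 22.85, 27.3 and 30.69 FPKM in ‘Muscat Hamburg’ and 1.44, 0.56 and 0.56 in ‘Victoria’ in summer at E-L 35, a log2 difference of 5.23 (SE 0.46, edgeR adjusted p = 4.66e-10). In winter at that stage it had 166.94, 162.27 and 168.1 against 17.07, 27.9 and 28.22, a log2 difference of 2.86 (SE 0.33, edgeR adjusted p = 1.19e-07). At E-L 38 in winter the difference was 2.03 (SE 0.3, edgeR adjusted p = 5.92e-06).

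VIT_209s0002g05590 had 4.95, 13.63 and 11.1 FPKM in ‘Muscat Hamburg’ and 0.57, 0.55 and 0.41 in ‘Victoria’ in summer at E-L 36, a log2 difference of 4.43 (SE 0.44, edgeR adjusted p = 6.87e-09). The difference was 3.96 and 4.23 at the first and last summer stages and 2.73 in winter at E-L 35 (edgeR adjusted p = 1.01e-08, 7.77e-09 and 2.29e-06). Its counts were whole in no library. VIT_218s0166g00260 had 7.14, 51.21 and 20.71 FPKM in ‘Muscat Hamburg’ against 3.15, 1.85 and 1.93 in ‘Victoria’ in winter at E-L 38, without overlap, a log2 difference of 3.63 (SE 0.7, edgeR adjusted p = 0.000218). At E-L 36 in winter the difference was 2.82 (SE 0.68, edgeR adjusted p = 0.00159).

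In all 6 contrasts 5 members were lower in ‘Muscat Hamburg’, where 1.68% of the genes tested were. These members were VIT_200s0615g00010, VIT_210s0071g00770 and the 3 neighbours on chromosome 2, VIT_202s0025g04864, VIT_202s0025g04880 and VIT_202s0025g04890. VIT_202s0025g04864 had 12.36, 19.93 and 13.76 FPKM in ‘Muscat Hamburg’ and 266, 276.26 and 267.96 in ‘Victoria’ in winter at E-L 38, a log2 difference of -4.07 (SE 0.28, edgeR adjusted p = 7.82e-12). In summer at E-L 38 it had 2.75, 4.29 and 3.31 against 113.84, 85.72 and 54.26, a difference of -4.63 (SE 0.3, edgeR adjusted p = 1.63e-12). In the remaining contrasts that name it, the difference was -3.63 in summer at E-L 36 and -3.89 and -3.62 at the first stages of winter (edgeR adjusted p = 1.18e-10, 1.6e-11 and 4.43e-11). Despite these differences its season ratios were alike, 2.09, 6.25 and 4.01 in ‘Muscat Hamburg’ and 2.74, 6.25 and 3.18 in ‘Victoria’.

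VIT_202s0025g04880 and VIT_202s0025g04890 had the same pattern. VIT_202s0025g04880 had 6.51, 4 and 5.09 FPKM in ‘Muscat Hamburg’ against 102.46, 117.5 and 120.17 in ‘Victoria’ in winter at E-L 38, a log2 difference of -4.38 (SE 0.44, edgeR adjusted p = 7.72e-09), and differences of -4.01 in winter at E-L 36 and -4.14 and -5.06 at the last stages of summer (edgeR adjusted p = 1.66e-08, 2.95e-07 and 6.43e-09). VIT_202s0025g04890 had 1.01, 0.85 and 0.57 FPKM against 39.07, 24.84 and 19.56 in summer at E-L 38, a difference of -5.08 (SE 0.41, edgeR adjusted p = 1.26e-10). It was -4.21 in summer at E-L 35, and -4.02 and -3.73 in winter at the first stages (edgeR adjusted p = 3.51e-10, 1.48e-10 and 1.68e-10). The counts of these genes were whole in at most 1 library, so reads shared among copies enter each value.

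VIT_210s0071g00770 had 5, 4.93 and 4.45 FPKM in ‘Muscat Hamburg’ against 105.88, 101.6 and 62.06 in ‘Victoria’ in summer at E-L 35, a log2 difference of -3.94 (SE 0.42, edgeR adjusted p = 1.72e-08), and all its counts were whole. VIT_200s0615g00010, on the unplaced sequence, had 3.9, 3.64 and 3.08 FPKM against 32.97, 77.06 and 83.51 in winter at E-L 38, a difference of -4.07 (SE 0.48, edgeR adjusted p = 1.75e-07). Its difference was -3.61 in winter at E-L 35 and -3.56 in summer at E-L 36 (edgeR adjusted p = 8.72e-07 and 5.82e-06). In both genes the varieties did not overlap at these points.

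The other flavonoid enzymes differed less between the varieties. Chalcone synthase was higher in ‘Muscat Hamburg’ summer berries at all 3 stages, by 2.67 (SE 0.35), 1.21 (SE 0.33) and 1.92 (SE 0.33) on the log2 scale (edgeR adjusted p = 4.85e-07, 0.00441 and 3.17e-05), and in winter at E-L 38 only, by 1.46 (SE 0.32, edgeR adjusted p = 0.000829). The call in summer at E-L 36 was lost without ‘Victoria’ replicate 3. Flavanone 3-hydroxylase was lower in ‘Muscat Hamburg’ in winter at E-L 36 and E-L 38, with log2 differences of -1.52 (SE 0.18, edgeR adjusted p = 2.14e-07) and -1.35 (SE 0.18, edgeR adjusted p = 1.75e-06). Chalcone isomerase had differences from -0.01 to 0.9, none of them 2-fold.

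Several further calls between the varieties rest on low counts. VIT_202s0154g00280 was at the limit in ‘Muscat Hamburg’ and had 0.09, 1.01 and 1.22 FPKM in ‘Victoria’ in summer at E-L 35, at least 2.28-fold lower in ‘Muscat Hamburg’ (edgeR adjusted p = 0.00627). With limma on log2(FPKM + 1) this call was lost. VIT_202s0025g04250 had 0.66, 0 and 2.12 FPKM in ‘Muscat Hamburg’ in summer at E-L 38 and was at the limit in ‘Victoria’. By the mean alone it was at least 2.12-fold higher in ‘Muscat Hamburg’ (edgeR adjusted p = 0.0253), although 1 library was at 0. The call was lost without the 4 libraries named above, without 1 of 3 single libraries or with limma on log2(FPKM + 1). VIT_203s0063g02360 had 0, 0.75 and 0 FPKM in ‘Muscat Hamburg’ and 0 in ‘Victoria’ in summer at E-L 36, so its call (edgeR adjusted p = 0.041) rests on 1 library and no fold change is given. VIT_207s0005g03410 had 0.98, 1.18 and 29.21 FPKM in ‘Muscat Hamburg’ and 1.91, 1.4 and 1.63 in ‘Victoria’ in winter at E-L 36, a log2 difference of 2.85 (SE 0.84, edgeR adjusted p = 0.0113) that turned to -0.64 without ‘Muscat Hamburg’ replicate 3. That gene was at the limit in all 6 summer groups.

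The stage change differed between the varieties for some members, tested as the difference of the log2 changes from E-L 35 to E-L 38. In summer 5 members had a higher change in ‘Muscat Hamburg’ and 4 a lower one (5.2% and 4.49% of all genes), and 5 in place of 9 were past the threshold without the 4 libraries named above or without ‘Victoria’ summer E-L 35 replicate 3. In winter 7 had a higher change and 5 a lower one (2.93% and 1.5% of all genes). VIT_218s0166g00250 differed in both seasons. In summer it rose in ‘Muscat Hamburg’ from 5.63, 5.17 and 3.25 to 36.67, 18.89 and 23.57 FPKM and went in ‘Victoria’ from 15.16, 27.08 and 38.2 to 2, 2.49 and 6.91 FPKM. These opposite courses differed by 4.99 on the log2 scale (SE 0.92, edgeR adjusted p = 0.000303).

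In winter VIT_218s0166g00250 had 33.08, 30.48 and 32.77 FPKM at E-L 35 and 22.77, 112.69 and 42.89 FPKM at E-L 38 in ‘Muscat Hamburg’, and 38.41, 203.96 and 50.35 and then 18.42, 19.56 and 21.42 in ‘Victoria’. The difference of 3.14 (SE 0.81, edgeR adjusted p = 0.0169) was not past the threshold without either of the 2 highest libraries, ‘Victoria’ winter E-L 35 replicate 2 and ‘Muscat Hamburg’ winter E-L 38 replicate 2. Nor was it past the threshold with limma on log2(FPKM + 1) or on log2(FPKM + 0.1). VIT_205s0077g01540 had the largest difference in winter, 4.58 (SE 0.93, edgeR adjusted p = 0.00282). It rose in ‘Muscat Hamburg’, as given above, and in ‘Victoria’ had 7.39, 5.9 and 53.73 FPKM at E-L 35 and 18.1, 13.7 and 10.32 FPKM at E-L 38, where the single high library set the E-L 35 mean. In the opposite direction, VIT_204s0023g03040 had a difference of -2.41 (SE 0.42, edgeR adjusted p = 0.000706), since it rose in ‘Victoria’ winter berries and had 8.79, 8.45 and 9.66 FPKM at E-L 35 and 10.94, 11.19 and 14.83 FPKM at E-L 38 in ‘Muscat Hamburg’.

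VIT_210s0071g00770 had a summer difference of 2.46 (SE 0.55, edgeR adjusted p = 0.00203), with 8.97, 19.6 and 4.48 FPKM at E-L 38 in ‘Muscat Hamburg’ against 5, 4.93 and 4.45 FPKM at E-L 35, and 30.25, 45.16 and 18.08 against 105.88, 101.6 and 62.06 in ‘Victoria’. The stages overlapped in the first variety and not in the second. VIT_205s0051g00680 had 1.05, 1.33 and 2.39 FPKM at E-L 38 and 4.06, 2.86 and 1.97 FPKM at E-L 35 in ‘Muscat Hamburg’ summer berries, and 51.11, 19.82 and 6.52 against 8.04, 11.06 and 7.93 in ‘Victoria’. Both stages overlapped in both varieties, and the difference of -2.66 (SE 0.97, edgeR adjusted p = 0.0491) was not past the threshold under 16 of the alternatives tried, among them the omission of the 4 libraries named above.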

How the data were processed

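RNA-seq of 36 de-seeded berry samples was analysed, 3 per combination of variety, season and stage, grouped from the sample labels. The authors aligned single reads to grapevine genome 12X V2 (the labels name Bowtie, with no version) and deposited for each gene an estimated count, which is not normalized and need not be whole. FPKM was also deposited, which the authors based on the longest transcript of a gene. The counting program was not given in the sources used here. A gene that a library did not list was given 0. A deposited table with 36 columns of FPKM whose headings matched no sample label was not used. The authors' fold changes were not used.

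Estimated counts were rounded and fitted with edgeR 4.0.16 in R 4.3.3 (filterByExpr, TMM, 12 groups in 1 quasi-likelihood model, common dispersion 0.0294), and p-values were adjusted by Benjamini-Hochberg over 19736 genes. The 12 groups shared the estimate of spread of a gene, although replicates were far more uneven in some groups than in others. The p-values of summer and winter contrasts should therefore not be set against each other. SE was derived from the log2 fold change and its F statistic. The same steps, tested on simulated data for the ‘Victoria’ winter stage contrast (19736 genes, 200 of them changed 4-fold), recovered 196 and called 3 unchanged genes. In the simulation all genes had the same spread, and no other gene differed between groups. The uneven spread among the real replicates was not simulated, so these numbers are no error rate of the tests. With all libraries of a group at 3 counts or fewer the group was at the limit. A fold against it divides the mean of the other group by 3 counts per library. It is a lower bound for that mean only. No error of the other group enters it, from counting or between replicates. Alternatives were DESeq2 1.42.0, limma 3.58.1 on log2 FPKM, other scalings and filters, other rule settings, a replicate block and leaving out libraries, of which the omission of 4 libraries was chosen after seeing the data.

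Described in full were the 10 members with the largest smallest ratio, the 10 with the highest winter mean, the 3 nearest the threshold on either side, the 5 non-members of most like pattern, members of the flavonoid list and, for each test, the 3 members with the largest change in each direction among those past the threshold. VIT_218s0001g00510 was given more values after these were seen. The members and lists were chosen with earlier results of these data known. Lists by product name (cold, heat, light, clock, flavonoid, terpene) and cell type markers could not be matched, since none of the 65 identifiers was in the reference gene table, and no sequence was printed. The replicate numbers did not pair the samples.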

Additional observations from a re-analysis of the deposited data

Results flagged for a closer look

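The change from E-L 35 to E-L 38 differed between ‘Muscat Hamburg’ and ‘Victoria’ by the edgeR interaction test in 9 members in summer (5 higher in ‘Muscat Hamburg’ and 4 lower, against 5.2% and 4.49% of all genes) and in 12 in winter (7 and 5, against 2.93% and 1.5%). The 3 largest in each direction and season are given here as the log2 change of ‘Muscat Hamburg’ minus that of ‘Victoria’. In summer the differences were -2.66 for VIT_205s0051g00680, -1.87 for VIT_214s0066g00700, -1.28 for VIT_202s0025g04864, 2.46 for VIT_210s0071g00770, 4.03 for VIT_218s0166g00260 and 4.99 for VIT_218s0166g00250 (edgeR adjusted p = 0.0491, 0.0329, 0.0168, 0.00203, 0.0229 and 0.000303). In winter they were -2.41 for VIT_204s0023g03040, -1.87 for VIT_204s0008g00540, -1.69 for VIT_209s0002g05590, 3.14 for VIT_218s0166g00250, 4.12 for VIT_218s0166g00260 and 4.58 for VIT_205s0077g01540 (edgeR adjusted p = 0.000706, 0.0498, 0.034, 0.0169, 0.00649 and 0.00282).

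The neighbours VIT_218s0166g00250 and VIT_218s0166g00260 had a higher change in ‘Muscat Hamburg’ in both seasons. VIT_218s0166g00260 had 2.4, 2.07 and 1.16 FPKM at E-L 35 and 5.12, 0.79 and 1.92 FPKM at E-L 38 in ‘Muscat Hamburg’ summer berries, which overlapped, and 0.99, 4.94 and 8.28 and then 0.16, 0.41 and 0.41 in ‘Victoria’, which did not. Its summer call was lost without the 4 libraries that correlated best with another group, and without any 1 of ‘Victoria’ E-L 35 replicate 3, ‘Victoria’ E-L 38 replicate 1 or ‘Muscat Hamburg’ E-L 38 replicate 1. With limma on log2(FPKM + 1) that summer call was lost as well. The winter call of VIT_218s0166g00250 was lost under 4 alternatives. The call of VIT_205s0051g00680 was lost under 16 of the alternatives tried, that of VIT_204s0008g00540 under 15, of VIT_209s0002g05590 under 9, of VIT_214s0066g00700 under 7 and of VIT_202s0025g04864 under 3. The part of uneven replicates in these differences was not tested.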

How the results depend on the processing

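The number of members depended on the amount added to FPKM and on the ratio asked for. It was 126 with 0.1 FPKM added, 49 with 1 FPKM, 199 at a ratio of 1.5 and 17 at a ratio of 3, against 65. It was 62 with medians, 74 on scaled CPM (59 shared), 65 with a mean of at least 1 FPKM, 89 by edgeR in all 6 pairs (59 shared) and 67 without the 4 libraries named in the report. With replicates left out it ranged from 58 to 72. Left out by replicate number, 34 members stayed throughout, and VIT_208s0007g00330 had a ratio in its lowest pair of 0.845 to 3.35.

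Requiring 10 counts in every library, which tests fewer members, left 10, 7, 6 and 8 members past the threshold in the stage contrasts of ‘Muscat Hamburg’ summer and winter and ‘Victoria’ summer and winter, 16, 13 and 12 in the summer and 8, 14 and 20 in the winter variety contrasts, and 7 in the winter interaction. With limma on log2(FPKM + 1), 13 were past it in the ‘Muscat Hamburg’ summer stage contrast and 16 in the summer E-L 38 variety contrast. DESeq2 gave 14 in the summer interaction. Without the 4 libraries 12 were past it in the ‘Victoria’ summer stage contrast and 5 in the summer interaction. The causes were not tested.

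With single libraries left out, the counts ranged from 16 to 20, 22 to 26, 16 to 24 and 18 to 28 in the stage contrasts in the order above, 25 to 29, 18 to 26 and 21 to 24 in the summer and 18 to 23, 30 to 31 and 26 to 29 in the winter variety contrasts, and 5 to 13 and 8 to 11 in the summer and winter interactions. The 5 came without ‘Victoria’ summer E-L 35 replicate 3. The difference of VIT_207s0005g03410 in winter at E-L 36 ranged from -0.64 to 3.4.

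Of 83 tests of single members, 66 were past the threshold under every alternative that gave a value. Of 1349 values, 1255 kept direction and threshold, 93 lost the threshold and 1 changed sign. Same-numbered replicates had correlations of -0.191 to 0.158 between groups, so the numbers did not pair the samples. With the replicate number as a block, 21, 27, 18 and 28 members were past the threshold in the stage contrasts in the order above, 19 to 30 in the variety contrasts and 9 and 11 in the interactions.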
